A study of Mus musculus with 6 samples.

Results

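Rsad2 and Cmpk2 are neighbouring genes on mouse chromosome 12, and every probe set annotated to either of them was taken, which gave 2 probe sets, 1 per gene, of 35557 on the array. Rsad2 is read by probe set 10399710 and Cmpk2 by probe set 10395039, each naming a single gene. The pair was chosen by its annotation and by its log2 levels and IFN-β changes on these arrays, so those values are given as a description, with no test. The series measured transcripts in 3 established mouse cell lines on whole-transcript arrays, and its stated purpose was to find genes regulated by interferon-beta (IFN-β). The lines were the embryonic fibroblasts NIH3T3, RAW264.7, which the labels call macrophages, and the fibroblasts L929, from connective tissue. Each was measured after 4 h of IFN-β and unstimulated, with 1 array for each of the 6 groups. No group had a replicate and a difference within a line has no error of its own, so precision is limited by how few arrays there are. No dose, passage or culture is given in the labels.

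Type I interferons bind the receptor made of Ifnar1 and Ifnar2, and the kinases Jak1 and Tyk2 then activate Stat2, which acts with Irf9 at interferon-stimulated response elements near their target genes. Rsad2 encodes viperin, an antiviral enzyme of the radical S-adenosylmethionine (SAM) superfamily that turns CTP into the nucleotide analogue ddhCTP, a chain terminator for some viral RNA polymerases. Cmpk2 encodes a mitochondrial kinase of UMP and CMP and so acts upstream of CTP, and in mouse macrophages it has been linked to mitochondrial DNA synthesis and the inflammasome. The genes lie side by side on opposite strands, so that their starts face each other.

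The promoter windows are shown because the genes share a neighbourhood and an inducer. Each covers 250 bases before to 50 bases after an annotated start, from RefSeq on GRCm38.p6, with any match to the searched motifs in capitals. The Rsad2 window is chr12:26456403-26456702 on the minus strand, and the Cmpk2 window is chr12:26468965-26469264 on the plus strand.
Rsad2: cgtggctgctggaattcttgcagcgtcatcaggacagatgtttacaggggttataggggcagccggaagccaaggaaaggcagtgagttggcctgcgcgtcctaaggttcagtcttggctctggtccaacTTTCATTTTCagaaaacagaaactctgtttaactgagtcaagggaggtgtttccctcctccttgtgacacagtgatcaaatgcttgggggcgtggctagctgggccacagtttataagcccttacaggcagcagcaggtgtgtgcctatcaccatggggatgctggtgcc
Cmpk2: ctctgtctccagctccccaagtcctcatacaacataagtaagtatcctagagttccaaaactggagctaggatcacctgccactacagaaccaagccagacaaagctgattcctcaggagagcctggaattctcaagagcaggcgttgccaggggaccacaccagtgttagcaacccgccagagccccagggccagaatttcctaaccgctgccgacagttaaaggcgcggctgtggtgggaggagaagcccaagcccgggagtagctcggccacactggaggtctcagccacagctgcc
The Rsad2 window held 1 match to the core of the interferon-stimulated response element, that is GAAA, 2 bases of any kind and GAAA again, searched on both strands, on the strand opposite to the gene and between 120 and 111 bases before the start. The Cmpk2 window held 0 matches to it. The core of the gamma-activated site, that is TTC, 3 bases of any kind and GAA, which reads the same on both strands, had 0 matches in either window, and no match overlapped another. Of 32851 promoter windows of the same length, 3.44% held the response element core and 8.30% the gamma-activated core. Among genes at least 3-fold higher with IFN-β in all 3 lines, 27 of the 48 with a window, 56.25%, held the response element core in at least 1 window, beside 3.89% of 15614 measured genes. Among genes at least 3-fold higher in 1 or more lines, the set that also holds Cmpk2, 61 of 174, 35.1%, held it. GC content was 53.0% in the Rsad2 window and 57.0% in the Cmpk2 window, beside a median of 52.7% over all windows. The Cmpk2 window is set from a transcript start that lies inside the annotated span of the gene, so bases near other starts of the gene are outside it.

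The arrays were close in scale. Stimulated NIH3T3 had a median log2 level of 5.05 over all probe sets, and the other 5 arrays had medians from 4.72 to 4.82. Over the 19938 genes measured, NIH3T3 had a median log2 change of 0.17, RAW264.7 one of -0.03 and L929 one of -0.05. The labelled cell types were set against 12 macrophage and 12 fibroblast markers. Unstimulated RAW264.7 had a median log2 level of 10.62 over the macrophage markers, against 3.87 in NIH3T3 and 4.14 in L929, and each of the 12 was highest in RAW264.7. The fibroblast markers had medians of 10.64 in NIH3T3 and 8.28 in L929, against 4.80 in RAW264.7. Not all of them set unstimulated L929 apart from RAW264.7. Thy1 stood at 4.96 in L929 and 5.11 in RAW264.7, Lox at 3.25 and 3.04, Postn at 3.13 and 2.77, and Twist1 at 4.99 and 4.90. Each of the other fibroblast markers was higher in L929, by a wider margin. Among single markers, the lysozyme gene Lyz2 stood at 12.07 in unstimulated RAW264.7, against 3.58 in NIH3T3, and the collagen gene Col1a1 at 11.60 in unstimulated NIH3T3, against 6.17 in RAW264.7. Epithelial markers had unstimulated medians from 4.80 to 4.88 and lymphocyte markers from 4.36 to 4.45. Of the 24 macrophage and fibroblast markers 0 were at least 3-fold higher or lower with IFN-β in any line. In a limma fit across the lines 0 passed at an adjusted p under 0.05, where 0.732% of all genes were higher and 0% lower. At an unadjusted p under 0.05 there was 1, the macrophage marker Cd14, where 5.48% of all genes were.

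With IFN-β, Rsad2 was far higher in every line, whereas Cmpk2 was far higher in NIH3T3 and RAW264.7 and nearly at its unstimulated level in L929. In NIH3T3 Rsad2 had a log2 level of 8.27 with IFN-β, against 4.43 unstimulated. In L929 Rsad2 had a log2 level of 11.73 with IFN-β, against 3.96 unstimulated. In RAW264.7 Rsad2 had a log2 level of 11.01 with IFN-β, against 6.30 unstimulated. All 3 stimulated arrays thus lay above all 3 unstimulated arrays for Rsad2. In NIH3T3 Cmpk2 had a log2 level of 8.09 with IFN-β, against 3.48 unstimulated. In L929 Cmpk2 had a log2 level of 4.42 with IFN-β, against 3.97 unstimulated. In RAW264.7 Cmpk2 had a log2 level of 10.76 with IFN-β, against 6.57 unstimulated. For Cmpk2 the groups overlap, since stimulated L929 lay below unstimulated RAW264.7. Each gene was read through 1 probe set, and whether that of Cmpk2 reads its transcript equally well in the 3 lines was not tested, which bears on each L929 value of Cmpk2. In bulk RNA of this kind, fewer responding cells and less RNA per cell cannot be told apart.

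**Figure D1:**
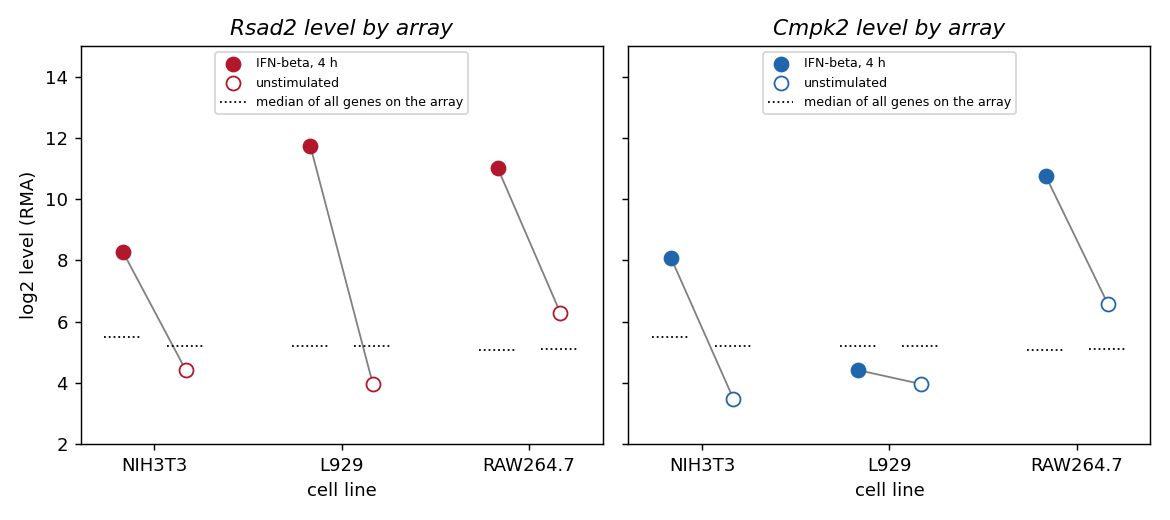
Log2 level (vertical axis) of Rsad2, left, and Cmpk2, right, on each of the 6 arrays, by cell line. Filled points are arrays after 4 h of IFN-β, open points unstimulated arrays, and dotted lines the median of all genes on that array. The Cmpk2 points of L929, at 4.42 and 3.97, both lie below the dotted lines. The stimulated Rsad2 point of L929, at 11.73, lies above its dotted line.

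Among all genes of the same array, Rsad2 stood at percentile 85.7 with IFN-β and 37.3 unstimulated in NIH3T3, at 98.8 and 63.0 in RAW264.7, and at 99.5 and 28.5 in L929. Cmpk2 stood at percentile 83.7 with IFN-β and 19.8 unstimulated in NIH3T3, at 98.3 and 65.8 in RAW264.7, and at 36.7 and 28.6 in L929. Both L929 arrays thus had Cmpk2 among the lower levels of the array. The levels of Rsad2 and Cmpk2 are not compared with each other, since their probes can differ in affinity. The same limit holds for the percentiles, which set each probe set against those of all genes. A low level is not a detection call, and the files used here carry none.

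From high to low, Rsad2 ran from stimulated L929 through stimulated RAW264.7, stimulated NIH3T3, unstimulated RAW264.7 and unstimulated NIH3T3 to unstimulated L929. Cmpk2 ran from stimulated RAW264.7 through stimulated NIH3T3, unstimulated RAW264.7, stimulated L929 and unstimulated L929 to unstimulated NIH3T3. With 1 array a group, whether neighbours in these orders differ beyond their spread cannot be said. Unstimulated RAW264.7 was the highest of the unstimulated arrays for both genes. Its log2 level of Rsad2 was higher by 1.87 than that of NIH3T3 and by 2.34 than that of L929, and its log2 level of Cmpk2 by 3.08 and 2.60. After IFN-β, RAW264.7 was 6.70-fold above NIH3T3 for Rsad2 and 6.40-fold for Cmpk2, so the distance between these stimulated arrays was similar for both genes. Stimulated RAW264.7 had a log2 level of Cmpk2 higher by 6.35 than stimulated L929, and a log2 level of Rsad2 lower by 0.72.

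The change within each line was read against the 3-fold threshold of the series' design text. Rsad2 had log2 changes (IFN-β minus unstimulated) of 3.83 in NIH3T3, 4.71 in RAW264.7 and 7.76 in L929. Cmpk2 had log2 changes of 4.60 in NIH3T3, 4.20 in RAW264.7 and 0.45 in L929. In RAW264.7 these are 26.2-fold for Rsad2 and 18.4-fold for Cmpk2. The unstimulated levels in NIH3T3 and L929 lay below the median of all genes on their arrays and have no detection call, so changes from them are given as differences of log2 signal, with no exact fold. Relative to the median change of all genes on the shifted NIH3T3 arrays, the log2 changes there were 3.67 for Rsad2 and 4.44 for Cmpk2. Both genes passed 3-fold in NIH3T3, where 0.476% of all genes did, and in RAW264.7, where 0.617% did. In L929 Rsad2 passed and Cmpk2 did not, in the line with the highest share, 0.893%. Rsad2 belonged to the 0.311% of genes past 3-fold in every line. Since the pair was chosen with these values known, nothing is read from the shares.

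Counted from the largest increase among the 19938 genes, Rsad2 ranked 28 in NIH3T3, 6 in RAW264.7 and 4 in L929. Cmpk2 ranked 14 in NIH3T3, 15 in RAW264.7 and 1538 in L929. The central 95% of genes had log2 changes between -0.55 and 0.92 in NIH3T3, between -0.50 and 0.63 in RAW264.7 and between -0.74 and 0.78 in L929. The Cmpk2 change in L929 lay inside that range, and the other 5 changes of the pair lay above it.

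**Figure D2:**
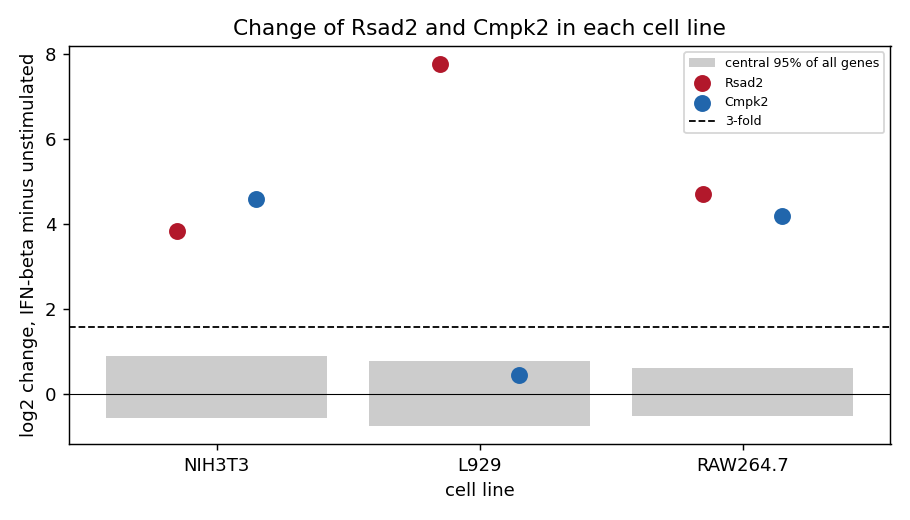
Log2 change, IFN-β minus unstimulated (vertical axis), of Rsad2 and Cmpk2 in each cell line, 1 pair of arrays per point. The grey bands hold the central 95% of all genes and the dashed line marks 3-fold. Cmpk2 in L929, at 0.45, is the 1 point inside a band, and Rsad2 in L929, at 7.76, is the highest point.

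By these probe sets the pair was higher together in NIH3T3 and RAW264.7 and split in L929. The Rsad2 change minus the Cmpk2 change was -0.77 in NIH3T3, 0.51 in RAW264.7 and 7.31 in L929 on the log2 scale. In NIH3T3 Cmpk2 changed somewhat more than Rsad2, in RAW264.7 somewhat less, and with no replicates these small differences have no error.

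L929 was set against the other lines for all genes at least 3-fold higher in both NIH3T3 and RAW264.7. There were 68 such genes, the pair included, and 57 of them changed more in L929 than on average in the other lines, with a median difference of 1.62 on the log2 scale. Cmpk2 had the lowest difference of the 68, with 0.45 in L929 against a mean of 4.40 in the other lines, a difference of -3.95. The next lowest was that of Ifi202b, a HIN-200 family gene, at -1.38. Rsad2 had the second highest of the 68. Of these genes, 6 stayed below 3-fold in L929, 0.0301% of all genes, and they were Cmpk2, Apod, Tdrd7, Psmb9, Pml and Lgals3bp. The L929 changes of the 5 beside Cmpk2 were close to the threshold of 1.58, from 1.18 for Apod, a lipid carrier, and 1.27 for Tdrd7, a Tudor-domain protein, through 1.39 for the immunoproteasome subunit Psmb9 and 1.45 for the nuclear body organiser Pml, to the galectin-binding glycoprotein Lgals3bp, which rounds to 1.58 and lies just below it. Cmpk2 was the 1 gene of the 68 below 2-fold in L929. With each array centred on its median, 3 of these genes were left, Cmpk2, Apod and Psmb9. At 5-fold 1 was left, Cmpk2.

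**Figure D3:**
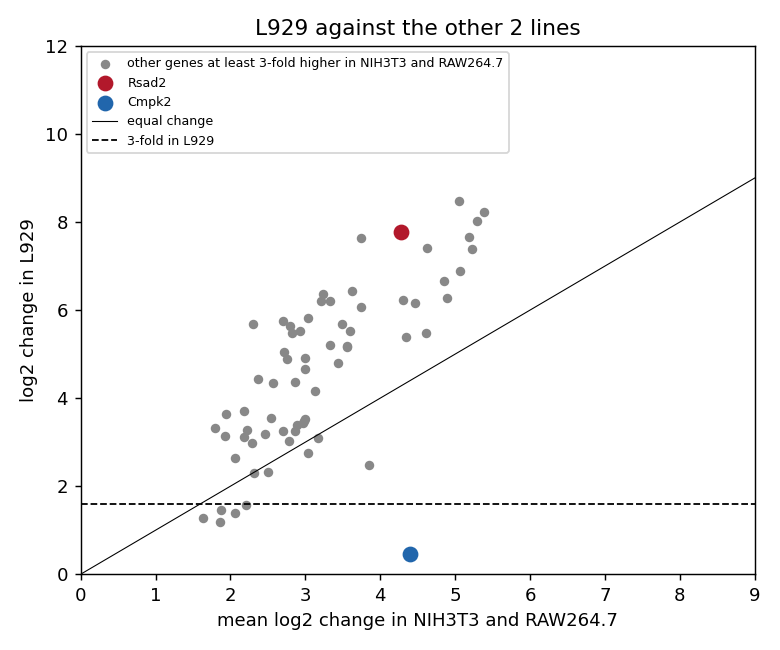
Log2 change in L929 (vertical axis) against the mean log2 change in NIH3T3 and RAW264.7 (horizontal axis) for the 68 genes at least 3-fold higher in both NIH3T3 and RAW264.7, 1 point per gene. The solid line marks equal change and the dashed line 3-fold in L929. Rsad2 lies far above the solid line, as 57 of the genes do to some degree, and Cmpk2, at 4.40 and 0.45, lies apart at the bottom.

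Among the 62 genes at least 3-fold higher in all lines, Rsad2 ranked 25 by its change in NIH3T3, 6 in RAW264.7 and 4 in L929. The genes with changes most like those of Rsad2 were named by the Euclidean distance between the 3 log2 changes, among the 218 other genes at least 3-fold higher in any line. Nearest was the immunity-related GTPase gene Gm4951 at a distance of 0.86, with changes of 3.60 in NIH3T3, 3.90 in RAW264.7 and 7.64 in L929. Next came the guanylate-binding protein gene Gbp3 at 1.58, the immunity-related GTPase gene Gm12250 at 1.62, Gbp7 at 1.74 and the immunity-related GTPase gene Iigp1 at 1.77. Cmpk2 had no neighbour as near. Its nearest was the peptide transporter gene Tap1 at 3.04, with changes of 3.55, 2.52 and 2.75 in the same order of lines. After it came Ifi202b at 3.27, the Schlafen gene Slfn8 at 3.35, the ADP-ribosyltransferase gene Parp12 at 3.35 and Lgals3bp at 3.35. Rsad2 and Cmpk2 themselves lay 7.37 apart.

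The region around the pair was then examined through the 5 measured genes on either side in the order of the RefSeq gene table. On the Rsad2 side these were, from near to far, the ubiquitin ligase gene Rnf144a, the transcription inhibitor gene Id2, the scaffold gene Kidins220, the acyltransferase gene Mboat2 and the ribonucleotide reductase subunit gene Rrm2. On the Cmpk2 side they were the noncoding RNA gene Gm9866, the transcription factor gene Sox11, Dcdc2c, the allantoicase gene Allc and the collectin gene Colec11. None of the 10 was at least 3-fold higher or lower in any line. Of all genes, 0.476% were at least 3-fold higher in NIH3T3, 0.617% in RAW264.7 and 0.893% in L929. The log2 changes of the 10 ran from -0.28 (Id2) to 0.77 (Sox11) in NIH3T3, from -0.51 (Id2) to 0.35 (Allc) in RAW264.7, and from -0.91 (Kidins220) to 0.95 (Id2) in L929. In L929 Id2 and Kidins220 lay outside the central 95% of all genes, from -0.74 to 0.78. In RAW264.7 Id2 lay just below its lower bound of -0.50. Id2 was thus higher in L929 and lower in the other lines, which a mean across lines does not show. In limma across the lines 0 of the 10 passed, where 0.732% of all genes were higher and 0% lower. An unadjusted p under 0.05 was found for 0, where 5.48% of all genes had one. Counts of 0 among 10 genes are near these shares, so nothing is read from them. The nearest gene on the Cmpk2 side, Gm9866, had log2 levels of 5.34 with IFN-β and 4.79 unstimulated in L929. The nearest on the Rsad2 side, Rnf144a, had 4.92 with IFN-β and 4.37 unstimulated in L929.

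**Figure D4:**
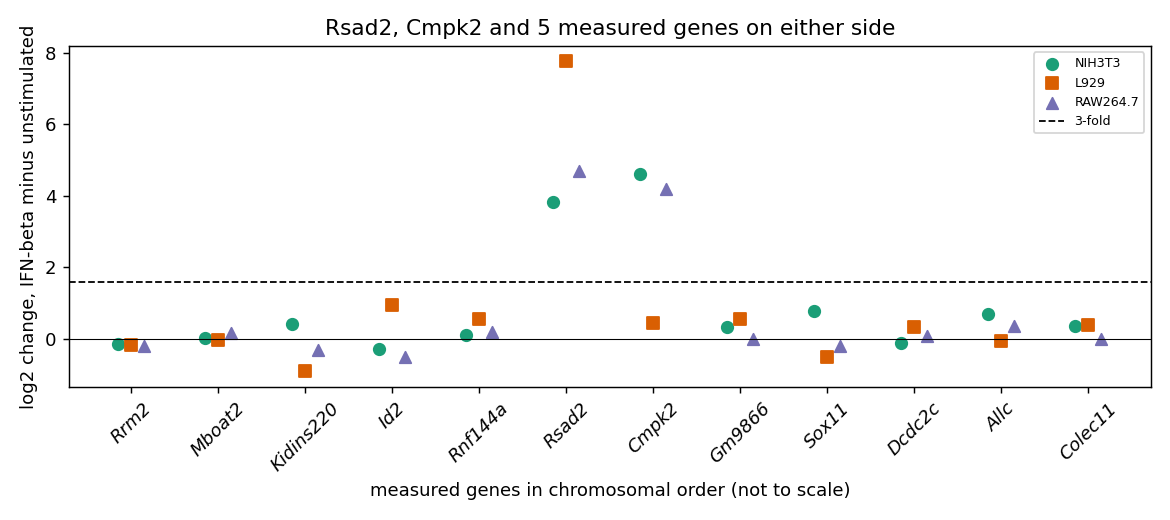
Log2 change, IFN-β minus unstimulated (vertical axis), of Rsad2, Cmpk2 and the 5 measured genes on either side, in chromosomal order and not to scale, with a marker per cell line. The dashed line marks 3-fold. The 10 flanking genes lie between -0.91 and 0.95, where the L929 marker of Cmpk2, at 0.45, also lies.

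Splitting of adjacent induced genes was counted over the whole genome for comparison, a count added after the values of the pair were known. Of 19894 pairs of adjacent measured genes, 49 had both genes at least 3-fold higher in at least 1 line, among them neighbours within the Ifit, Gbp and Slfn families. By this threshold 27 of the 49 had only 1 gene at least 3-fold higher in at least 1 other line. The count rests on 3-fold alone, and neighbouring pairs within gene families share genes, so the 49 are not independent. Both genes were at least 3-fold higher in all lines in 16 pairs, and in both NIH3T3 and RAW264.7 in 18. Of those 18, 2 had only 1 such gene in L929, Rsad2 with Cmpk2 and Psmb9 with Tap1. Psmb9 and Tap1 had L929 changes of 1.39 and 2.75, on either side of the threshold. In L929 the changes of Rsad2 and Cmpk2 were further apart than those of the other 48 pairs. Among those the largest difference was 5.75, between Cxcl10 and Cxcl11, and the median difference of the 49 was 1.83. In 41 of the 49 both genes were at least 3-fold higher in L929 itself. Over all adjacent pairs 273 had only 1 such gene in L929, most of them outside the 49. From the largest of the 49, the difference of Rsad2 and Cmpk2 ranked 31 in NIH3T3 and 39 in RAW264.7. Both genes were at least 3-fold higher in 21 of the 49 pairs in NIH3T3 and in 32 in RAW264.7. Rsad2 and Cmpk2 were chosen with their changes in all lines known, so nothing is read from their place in any line.

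Genes that carry the interferon signal were compared across the lines with limma, with the 3 lines in place of replicates. Its p-values rest on the spread between lines, drawn by empirical Bayes towards that of all genes. Of 16 measured interferon signalling genes 6 rose, against 3 with the variance estimated robustly with a trend, 4 without the L929 pair and 0 without the cell line in the model. Values with ± are the mean over 3 lines and the limma SE, which uses that moderated variance and not the gene's own spread alone. Stat2, which brings an activation domain to the response elements, rose by 3.13 ± 0.21 on the log2 scale (limma adjusted p = 7.67e-05). Its changes were 3.39 in NIH3T3, 2.55 in RAW264.7 and 3.45 in L929. Its partner Irf9 rose by 2.22 ± 0.39 (limma adjusted p = 0.0293), with 2.75, 0.68 and 3.23 in the same order. Irf7, a transcription factor that amplifies the response, rose by 3.96, Irf1 by 2.49, Irf2 by 1.23, and Usp18, which dampens receptor signalling, by 5.56. In L929 these 6 genes had log2 changes from 1.79 for Irf2 to 7.42 for Usp18, beside 0.45 for Cmpk2. Prdm1, a repressor, had changes of 0.33, 0.28 and 0.14 and did not pass (limma adjusted p = 0.964). The median log2 change of the 16 genes was 0.44 in NIH3T3, 0.42 in RAW264.7 and 0.62 in L929.

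The other antiviral effectors were compared in the same way. Of 25 measured effectors besides the pair 17 rose in limma, where 0.732% of all genes did. An unadjusted p under 0.05 was found for 22, where 5.48% of all genes had one. With the variance estimated robustly with a trend 6 rose, and without the cell line in the model 2 did. In L929 20 of the 25 were at least 3-fold higher, against 15 in NIH3T3 and 13 in RAW264.7, and the change was the largest of the 3 lines in L929 for 19. The 5 below 3-fold in L929 were Ifitm1, Ifitm2, Zc3hav1, Samhd1 and Ch25h, and each of them was also below 3-fold in NIH3T3 and RAW264.7. None of the 25 was at least 3-fold higher in NIH3T3 and RAW264.7 and below it in L929, the pattern of Cmpk2. Only 9 of them passed in both NIH3T3 and RAW264.7, and all 9 also passed in L929. Since 0.0301% of all genes have the pattern, nothing is read from its absence here. The RNA-binding protein gene Ifit1 rose by a mean log2 change of 6.33, its relatives Ifit3 by 6.01 and Ifit3b by 5.95. Before stimulation 19 of the 25 were highest in RAW264.7, as Rsad2 and Cmpk2 were. The share of all genes highest there was not counted, nor the share with the largest change in L929. Nothing is therefore read from the counts of 19.

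Genes that serve the enzyme viperin were examined next. With 0.732% of all genes passing, a count of 0 in lists this small is near the background, so their values are given and nothing is read from the counts. Of 7 other radical SAM enzymes 0 passed in limma and 0 had an unadjusted p under 0.05. Rsad1, the relative of viperin by name, had log2 changes of 0.35 in NIH3T3, 0.35 in RAW264.7 and -0.23 in L929. Tyw1, a tRNA-modifying enzyme gene, stood at 0.11, -0.13 and -0.56 in the same order of lines, and the lipoyl synthase gene Lias at -0.27, 0.02 and -0.18. The same counts, 0 and 0, held for 8 genes of cytosolic iron-sulphur assembly, which provides the cluster that viperin needs. Those with the largest mean changes were Ciao2a at -0.63, -0.13 and 0.15, Nubp1 at 0.28, 0.17 and 0.01, and Nubp2 at 0.22, 0.26 and -0.89. They also held for 6 genes whose products have been reported to bind viperin or to be inhibited by it. Among these the farnesyl diphosphate synthase gene Fdps had log2 changes of -0.14, -0.18 and -0.30, and the mitochondrial trifunctional protein subunit gene Hadhb -0.61, -0.08 and 0.04. Irak1, a kinase of Toll-like receptor signalling, stood at -0.10, 0.02 and -0.19.

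Genes with a role related to that of Cmpk2 were read against the same share of 0.732%. Of 19 nucleoside and nucleotide kinases 0 passed in limma, 0 had an unadjusted p under 0.05, and 0 were at least 3-fold higher in any line. Cmpk1, the cytosolic UMP-CMP kinase, had log2 changes of -0.12 in NIH3T3, -0.04 in RAW264.7 and -0.01 in L929. The deoxycytidine kinase gene Dck had the largest mean change of the list, with -0.21, 1.22 and 0.30. The uridine-cytidine kinase gene Uck1 stood at 0.37, -0.45 and -0.80, and the nucleoside diphosphate kinase gene Nme2 at -0.52, -0.14 and -0.06. Of 18 genes of pyrimidine metabolism 0 passed and 0 had an unadjusted p under 0.05. The pyrimidine nucleotidase gene Nt5c3 stood at -0.40 in NIH3T3, -0.05 in RAW264.7 and 1.57 in L929, so it was highest in the line where Cmpk2 changed least. Dpyd, of pyrimidine breakdown, stood at 0.74, 0.02 and 0.20, and Cad, of pyrimidine synthesis, at 0.12, 0.01 and -0.90. Of 12 genes of mitochondrial DNA synthesis and the inflammasome 0 passed, and 3 had an unadjusted p under 0.05, where 5.48% of all genes had, with Casp1 and Il1b higher and the helicase gene Twnk lower. Casp1, the inflammasome protease, had a mean log2 change of 0.95 (limma adjusted p = 0.120), the cytokine gene Il1b 0.45 and Twnk -0.40.

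**Figure D5:**
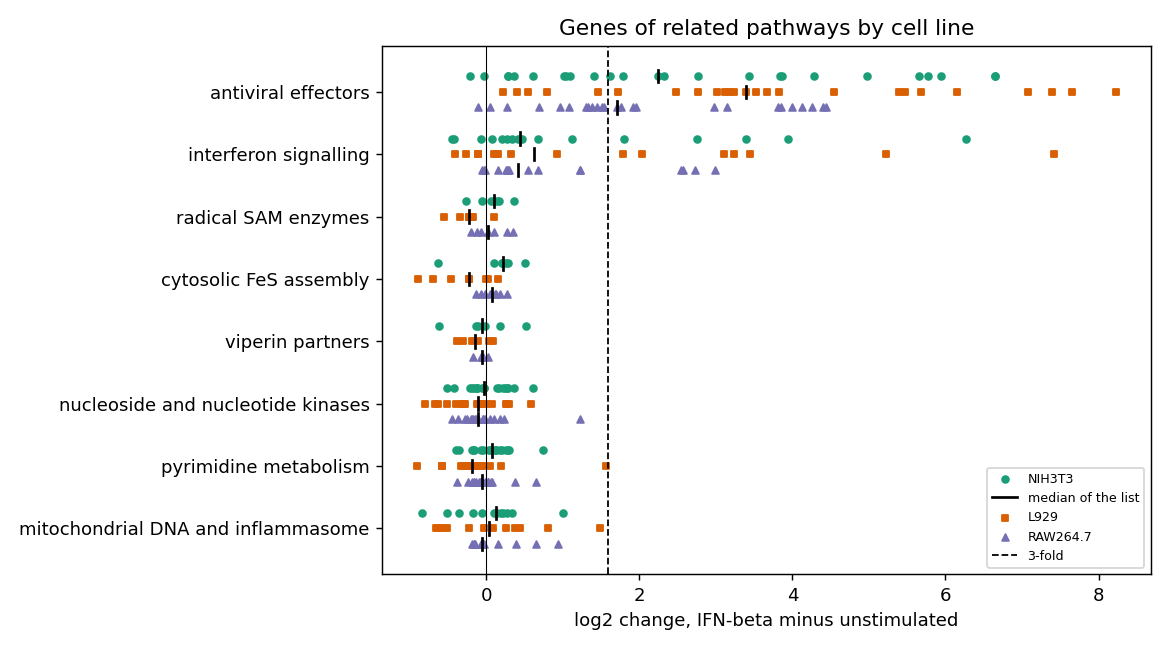
Log2 change, IFN-β minus unstimulated (horizontal axis), of the genes of 8 lists, 1 point per gene and cell line, with black ticks at the median of each list and line. The dashed line marks 3-fold. Antiviral effectors reach the highest values, most of all in L929 with a median of 3.40, and the 6 lists below interferon signalling stay under the dashed line.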

How the data were processed

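The deposited values are log2 levels of 6 arrays that the authors computed with RMA, per the submitters' processing notes. RMA corrects the background, normalizes between arrays and gives 1 value per probe set. Its version and the annotation build of the array: not given in the sources used here. Base 2 was inferred from the range of the values. The labels name Affymetrix's whole-transcript kit for labelling.

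Symbols came from the platform annotation, updated by Entrez ID (21698 of 21789 single-gene probe sets matched). Per gene the probe set with the highest mean was kept, giving 19938 genes, with no filter on low levels. Changes within a line were taken as stimulated minus unstimulated array, untested. The effect over the lines was fitted in R 4.3.3 with limma 3.58.1, as treatment with cell line as a block. Empirical Bayes and Benjamini-Hochberg adjustment over all genes were used. The fit was also run on simulated data with the same change in every line, so changes that differ between lines were not covered. In the results the fit was used for genes other than the pair. Stimulated and unstimulated arrays pair by the line they share. The pair and all lists were chosen with earlier results of these data known. Genes named were the pair, the 5 nearest to each, the genes past 3-fold in NIH3T3 and RAW264.7 but not L929, 5 neighbours a side, and the leading or directly related members of each list. Genes of adjacent pairs were named after their values were seen, as were Irf2, Cd14 and the effectors below 3-fold in L929. Alternatives covered scaling, probe set, threshold, level filter, block, variance, lines left out and the measure of likeness. Other steps ran in Python 3.11.15 (matplotlib 3.10.9, pandas 2.3.3, numpy 2.4.6).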

Additional observations from a re-analysis of the deposited data

How the results depend on the processing

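The changes of Rsad2 and Cmpk2 and the difference between them kept their direction with arrays centred on the median and with quantile normalization. The changes also kept their side of 3-fold. The mean over probe sets could alter no value, since each gene has 1 probe set. Centring moves both genes of an array alike, so it could not alter their difference. Under these alternatives the Cmpk2 change in L929 lay between 0.41 and 0.45, that of Rsad2 between 7.70 and 7.77, and their difference between 7.30 and 7.31. At 2-fold, 345 genes were higher in NIH3T3, 228 in RAW264.7, 314 in L929 and 109 in all lines, and at 5-fold 62, 67, 115 and 34, where at 3-fold there were 95, 123, 178 and 62. Genes higher in NIH3T3 and RAW264.7 but not in L929 numbered 6 at 3-fold, 6 at 2-fold (of which 1, Cmpk2, is shared with those at 3-fold), 1 at 5-fold and 3 with centred arrays, and Cmpk2 was among them under each alternative run. Across lines 146 genes passed in limma, 2 without the cell line in the model (no replicate block), and between 116 and 218 with each line left out in turn. Of the 5 genes most like each member, the correlation of the 6 levels shared 0 for Rsad2 and 1 for Cmpk2. Interferon signalling genes that rose numbered 6, 3 with the robust trend and 0 without the block. Without the RAW264.7 pair 1 gene of the mitochondrial and inflammasome list passed, where 0 did with all lines. The causes were not tested. With 1 array per group and no detection calls, low levels such as those of Cmpk2 in L929 have no order beyond their rank on the array.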
